A study of Caenorhabditis elegans with 4 samples.

Results

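The copper response of adults that lack a working *kgb-1* gene was read from 2 Affymetrix *C. elegans* arrays, one of *kgb-1(km21)* animals kept with water and one of *kgb-1(km21)* animals kept with 1 mM copper sulfate. Animals of the Bristol N2 background were grown at 20 °C on NGM plates with *E. coli* OP50 until day 1 of adulthood and incubated for 1 h at room temperature before total RNA of whole worms was taken. The same treatments of N2 wild-type animals gave the other 2 arrays of the series. Of 22548 worm probe sets on the array, 10896 had a signal of at least 100 on 1 or both mutant arrays, and these are described here. Of them, 10398 carry 1 gene symbol (8265 genes), 333 carry several symbols and 165 are unnamed. Each condition was hybridized once, so a difference between the mutant arrays has no replicate and no test. The log2 ratios of 18 hybridization controls, added in equal amount to every sample, had an SD of 0.22 between the mutant arrays. This SD covers hybridization and scanning only, not differences between separate worm samples. The signal of a whole animal does not separate fewer cells of a type from less RNA per cell.

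KGB-1 is a worm member of the JNK family of mitogen-activated protein kinases. It is activated by the kinases MLK-1 and MEK-1, switched off by the phosphatase VHP-1, and needed for animals to survive heavy metals. Copper is required by enzymes of respiration and of superoxide removal, but in excess it binds protein thiols and promotes the formation of reactive oxygen species. The known answers of worms to metals and to toxic stress include metal-binding proteins, heat shock proteins, enzymes that conjugate foreign compounds, and peptides of innate immunity made in the epidermis and the intestine.

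The question is which of these answers copper still evoked without KGB-1. Copper left most transcripts near their level in water: the median log2 ratio of copper over water was -0.01 over all members, their SD was 0.39, and 92.7% lay within 1.5-fold. A signal more than 2-fold higher with copper was found for 165 probe sets (1.51%) and one more than 2-fold lower for 82 (0.753%), together 247 (2.27%). The dimmer of both signals was below 100 for 76 of the 165 and for 46 of the 82. Their folds are therefore given against 100 as lower bounds, and with every signal below 100 raised to 100 the counts past 2-fold were 117 and 43. Past 4-fold on that scale were 23 probe sets on the higher side and 8 on the lower. The spread differed with brightness: between 100 and 200 in the brighter signal the SD was 0.50 and 48 of 2073 probe sets were higher and 39 lower, and above 2000 the SD was 0.30 and 11 and 4 of 2035 were.

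**Figure D1:**
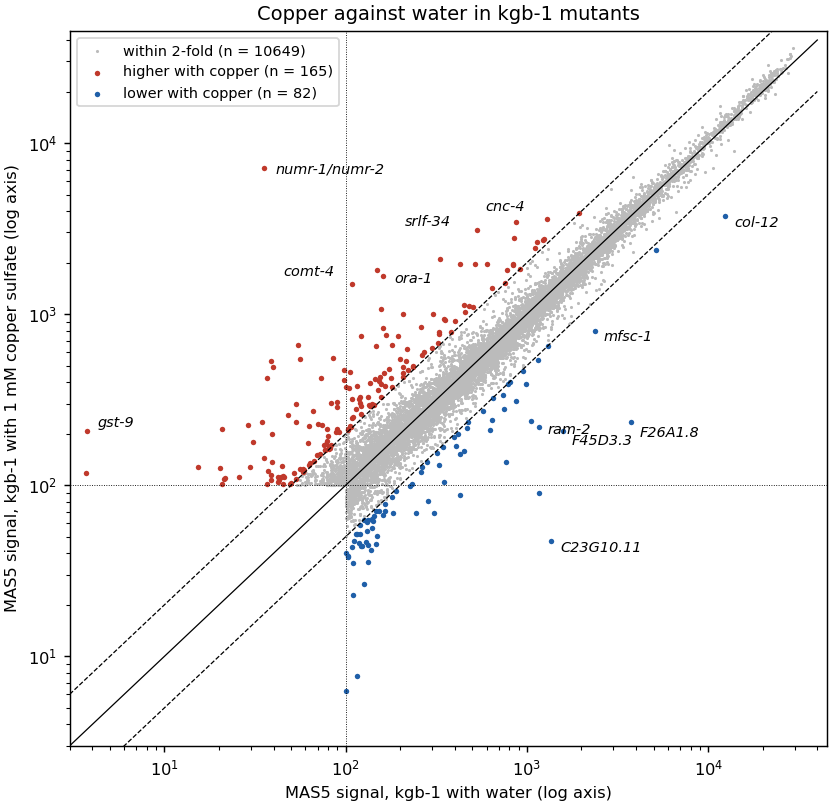
Signal of each of the 10896 probe sets with water (horizontal, log axis) and with copper (vertical, log axis) in *kgb-1* mutants. Dashed lines mark 2-fold and dotted lines a signal of 100. Red points (165) are higher and blue points (82) lower with copper, and the probe set of *numr-1* and *numr-2* lies farthest from the diagonal among the bright ones.

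The largest ratio among bright probe sets belonged to the probe set listed for both *numr-1* and *numr-2*, neighbouring genes for nuclear proteins known to be made in response to cadmium. Its signal in mutants was 35.5 with water and 7165 with copper, at least 71.6-fold higher. In wild-type animals it was 50.9 and 6362. Both water signals were thus below 100, and both copper signals were among the bright ones of their array. The array does not separate the 2 genes.

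Of the 17 measured probe sets of genes known to answer heavy metals, it was the only one past 2-fold in the mutants, and the median of the list was 0.18 on the log2 scale. Next in the list came *cdr-4*, of the cadmium-responsive family, with 430.2 and 791, and *ttm-1*, a zinc exporter, for which 3 probe sets gave log2 ratios between 0.65 and 0.83. Metallothioneins bind copper and cadmium through their cysteines. The probe sets of *mtl-2* were already bright with water, at 10555 to 13502, and gave log2 ratios of -0.02 to 0.09, while *mtl-1* went from 421 with water to 276 with copper. *cdr-1* (163 and 185), the phytochelatin synthase gene *pcs-1* (359.6 and 323) and *hmt-1*, for an ABC transporter of heavy metal tolerance (718 and 725), differed by less than 1.2-fold.

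None of 14 probe sets of the copper-handling list was past 2-fold, and their median was 0.02. The copper-exporting ATPase gene *cua-1* gave 376 with water and 381 with copper. The copper chaperone gene *cuc-1* gave 1329 and 1053, *cox-17*, whose product carries copper to cytochrome oxidase, 981 and 683, and the copper-zinc superoxide dismutase gene *sod-1* 6172 and 7080.3. The ratios of this list ran from -0.52 to 0.42, so the transcripts for moving copper and using it stayed close to their water level. Likewise none of 33 probe sets for transport and storage of zinc, iron and haem was past 2-fold, although 24 had a ratio above 0.

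Among inducible heat shock genes, 4 of 22 probe sets were past 2-fold higher, against 1.51% of all members, and none lower. Both probe sets listed for *F44E5.4* and *F44E5.5*, a pair of Hsp70 genes, were among them, the brighter with 332 in water and 2089.8 in copper (6.29-fold) and the other with 429.9 and 1956. The small heat shock genes were next: *hsp-16.41* had 502 and 1106, and the probe set listed for *hsp-16.1* and *hsp-16.11* had 1232 and 2698. In wild-type animals these 2 probe sets gave 531 and 655, and 1199 and 1755, within 1.5-fold. *hsp-16.2* (579.7 and 1077), *hsp-70* (234 and 424) and the probe set of *hsp-16.48* and *hsp-16.49* (1808 and 3397) stayed just inside 2-fold. Constitutive chaperones did not show such ratios. None of 79 probe sets of that list was past 2-fold (median 0.05), nor was any of 17 of the unfolded protein response of the endoplasmic reticulum (median 0.12) or of 15 of the list for hypoxia and hydrogen sulfide (median 0.14). That list takes only probe sets with 1 of its symbols. Outside it, the probe set listed for both *oac-54* and *rhy-1*, an inhibitor of the hypoxia factor HIF-1, was higher (150.7 and 358, 2.38-fold), while the probe set of *rhy-1* alone had 227 and 289.5.

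**Figure D2:**
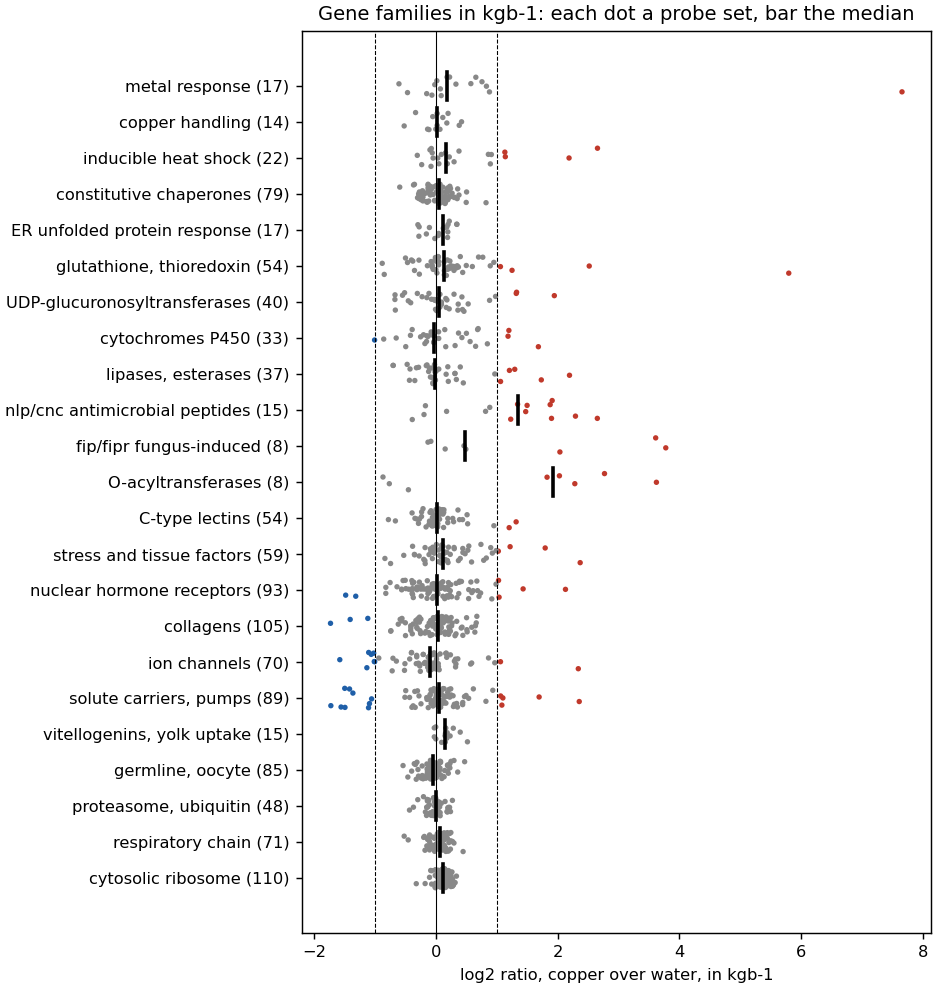
Log2 ratio of copper over water in *kgb-1* mutants for probe sets of 23 gene lists (number measured in brackets). Each point is a probe set, the black bar the list median, and dashed lines mark 2-fold. The median of the nlp/cnc peptides lies beyond 2-fold, and those of ribosome, proteasome and respiratory chain near 0. The median of the few measured O-acyltransferases also lies beyond 2-fold. Their higher probe sets were measured only through the copper array, so it supports nothing about the family.

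Small secreted peptides of the epidermis were a large group on the higher side. Of 15 measured probe sets of the *nlp* and *cnc* families, antimicrobial peptides that the epidermis makes on fungal infection or wounding, 9 were past 2-fold higher, against 1.51% of all members, and the median was 1.34 against -0.01 over all members. The array holds 19 probe sets of these families. *nlp-29* had 520.1 with water and 1952 with copper, *nlp-30* 206 and 1008, and *nlp-31* 841 and 1969.6. *cnc-4* had 1283 and 3622, *cnc-2* 448 and 1134, and the brighter of 2 probe sets of *cnc-7* 180.5 and 662. Both signals were above 100 in each of these named genes. *cnc-6*, also among the 9, had 20.1 and 126, at least 1.26-fold higher, and 34.8 and 58.0 in wild-type animals. It was counted as measured only through the copper array. Other members did not take part: *nlp-27* had 1232 and 1093, *nlp-33* 1743 and 1966, *cnc-3* 427 and 372, and *cnc-8* 1146 and 875. Many of these probe sets carry a suffix for sequences shared with other transcripts, so neighbouring members of the family may share signal. The probe sets of the fungus-induced protein genes *fipr-22* and *fipr-23*, which are not separated, gave 54.3 and 663 on the one and 39.0 and 533 on the other, at least 6.63-fold and 5.33-fold higher. *fipr-26* was at least 2.72-fold higher (66.4 and 272), whereas *fipr-21*, *fipr-2* and the *fip* genes stayed within 2-fold.

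Of 60 probe sets of the *oac* family, membrane O-acyltransferases, 8 were measured, and 5 of these, from 4 genes, were past 2-fold higher: *oac-31* with 39.7 in water and 488 in copper on the brighter of its probe sets, *oac-14* with 97.4 and 473, *oac-6* with 62.4 and 221, and *oac-20* with 35.4 and 144. All 5 water signals were below 100, so these probe sets were counted as measured only through the copper array, and their number among the measured ones supports nothing about the family. *oac-46* and *oac-59* had ratios below 0. Intestinal immune genes contributed *sysm-1*, whose transcript is used as a readout of the p38 kinase PMK-1, with 156 and 1068 (6.84-fold). Its wild-type signals were 364 and 979, so that the genotypes differed with water and met with copper. *C17H12.8* was higher on both of its probe sets (479.8 and 1116, and 235 and 491). The C-type lectin family (2 of 54 higher, median 0.01) stayed near its water level for the most part. So did a list that holds lysozymes, saposin-like proteins and *dod-22* (2 of 39, median -0.05). The higher shares of these 2 lists were 3.7% and 5.13%, against 1.51% of all members. In the second list *dod-22*, with 49.6 and 102 (at least 1.02-fold), was counted as measured only through the copper array. Its share therefore supports nothing about lysozymes or saposin-like proteins.

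Enzymes that modify or conjugate foreign compounds differed gene by gene, with list medians near 0. Of 54 probe sets of the glutathione and thioredoxin systems 4 were past 2-fold higher, against 1.51% of all members: *gst-30* with 73.5 and 421 (at least 4.21-fold), *gst-33* with 179 and 425, *gst-9* with 3.74 and 208 (at least 2.08-fold) and *gst-12* with 80.5 and 168. The large log2 ratio of *gst-9*, 5.80, rests on a very low water signal. The water signals of *gst-30*, *gst-9* and *gst-12* were below 100, so these were counted as measured only through the copper array. Their count therefore supports nothing about the family, and against 100 *gst-12* was less than 2-fold higher. *gcs-1*, for the enzyme that limits glutathione synthesis, had 694 and 1341 and stayed inside 2-fold. The same share of all members, 1.51%, is the background for the other enzyme lists. In these lists *ugt-52*, *cyp-33C7*, *cyp-36A1* and *sdz-8* also passed the signal minimum only through the copper array. Of 40 UDP-glucuronosyltransferase probe sets 3 were higher, led by *ugt-25* with 193 and 744, and *ugt-44* had 215 and 536. Among 33 cytochrome P450 probe sets 3 were higher and 1 lower, *cyp-34A9* with 649.8 and 323. The short-chain dehydrogenase gene *sdz-8* had 97.4 and 410.2 (at least 4.10-fold) and the flavin monooxygenase gene *fmo-4* 132 and 328. The probe set of *comt-4*, a catechol O-methyltransferase gene, gave 109 and 1509 (13.9-fold, with 73.3 and 1815 in wild-type animals), the second largest ratio after that of *numr-1* and *numr-2* when dim signals are raised to 100, and *comt-3* gave 174 and 480.2. Of 37 lipase and esterase probe sets 5 were higher, among them the carboxylesterase genes *cest-24* (166 and 759) and *cest-32* (303 and 1006) and the lipase gene *lips-5* (114.5 and 281).

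**Figure D3:**
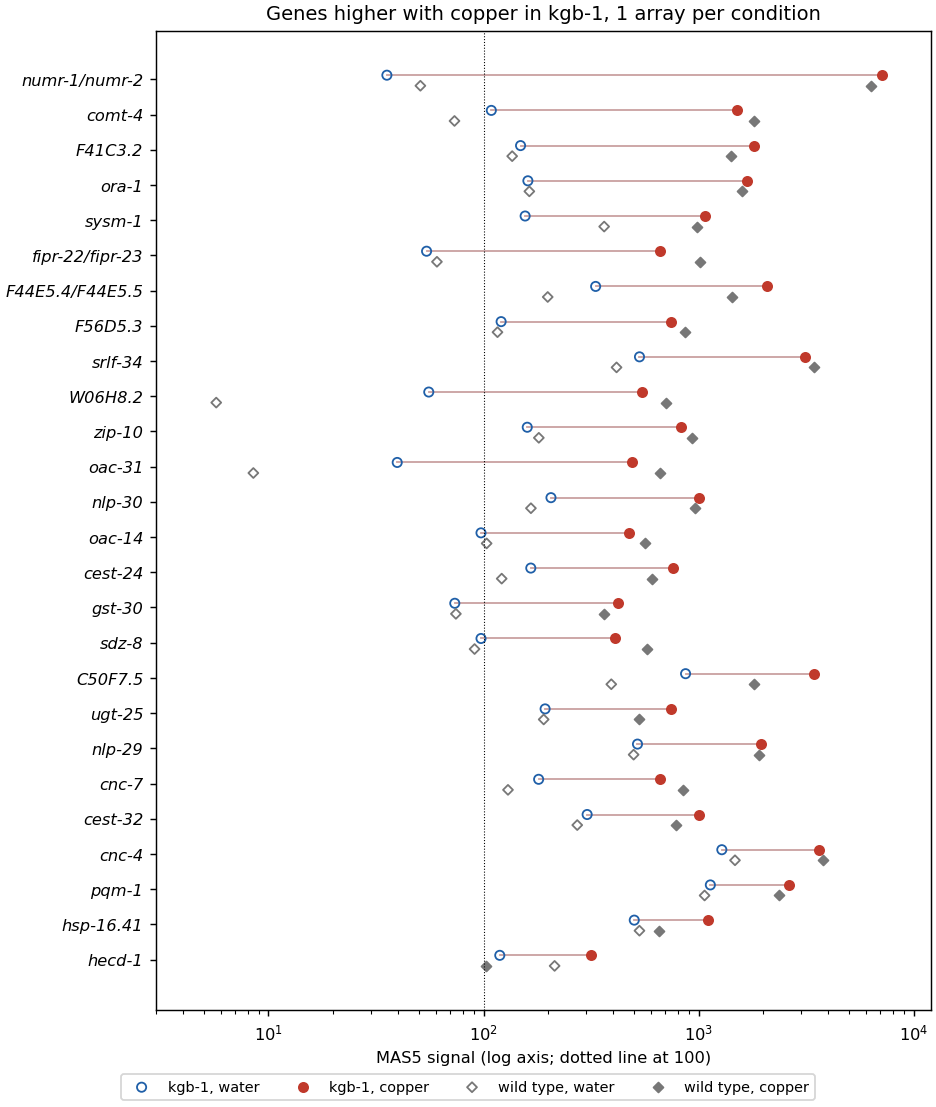
MAS5 signal (log axis) of 26 genes or gene pairs that were higher with copper in *kgb-1* mutants, 1 array per condition. Open and filled circles are mutants with water and with copper, open and filled diamonds wild-type animals with water and with copper, and the dotted line marks 100. For most genes the diamonds lie beside the circles of the same treatment, for *hsp-16.41* the filled diamond stays close to the open one, and for *hecd-1* they lie the other way round.

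Other genes with large ratios belong to none of these families, and some go by a sequence name alone. *F41C3.2* had 149 with water and 1804 with copper (12.1-fold; 136 and 1421 in wild-type animals), *F56D5.3* 121 and 747 (6.19-fold), and *srlf-34* 531 and 3111 (5.85-fold). The *srlf-34* signal was thus already well above 100 in water. *ora-1*, a homologue of a filarial antigen, had 161 and 1678 (10.4-fold), and 163 and 1586 in wild-type animals. Among those with smaller ratios were *T27F6.8*, with 146 and 648, and *C50F7.5*, with 870.4 and 3435. *W06H8.2*, with 55.6 and 544, was at least 5.44-fold higher.

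Genes of transcription factors mostly stayed within 2-fold. Of 59 probe sets of the stress and tissue list 4 were higher (6.78%, against 1.51% of all members). *zip-10*, a basic leucine zipper gene, had 159.8 and 825 (5.16-fold), and *pqm-1*, a zinc finger gene of the intestinal stress response, 1135 and 2639 (2.33-fold). *mef-2* and *sta-2* passed from signals below 100, and another probe set of *mef-2* had 212 and 196. The AP-1 gene *fos-1* had 121 and 261 on one probe set and 262 and 467 on the other. In the list of the KGB-1 cascade itself this was the only gene past 2-fold of 16 probe sets. *mek-1* had 2503 and 2365, *hda-1*, for a histone deacetylase, 1449 and 1332, and the phosphatase gene *vhp-1* 296 and 488 on the brighter probe set. The probe set of *kgb-1* had 179.5 and 229. Where its probes lie relative to the deleted part is not given in the sources used here, so this signal does not check the genotype. Of 14 probe sets for the p38 and JNK-1 kinases and their partners only that of *sta-2* (58.4 and 118.8) was past 2-fold. Both measured genes that the study selected as regulated by KGB-1, starting from these arrays, were past 2-fold in the mutants too, *kreg-1* with 37.2 and 122 and *K11H12.4* with 79.4 and 193. Of 6 probe sets on the array for the selected genes only these 2 were measured. Their mutant water signals were below 100, so both were counted as measured only through the copper array. That both passed therefore supports nothing about the selected genes, and against 100 both were less than 2-fold higher. In wild-type animals *kreg-1* had 176 and 1034 and *K11H12.4* 330.2 and 894, so the mutant copper signals lay below the wild-type water signals.

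Nuclear hormone receptor genes were found on both sides. Of 93 probe sets 4 were higher and 2 lower, against 1.51% and 0.753% of all members. Of these only *nhr-45* (104 and 213), *nhr-105* (103 and 211) and *nhr-114* (325 and 130.5) had both signals above 100.

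Smaller families had 1 to 3 members past 2-fold. Of 26 probe sets of hedgehog-related and patched-related genes, which act in molting and at the cuticle, 3 were higher, against 1.51% of all members. *ptr-8* had 328 and 767, *ptr-25* 77.2 and 161, and *wrt-2* 42.2 and 112, and against 100 the last 2 were less than 2-fold higher. The transthyretin-related gene *ttr-26* had 155 and 429.7, the trehalase gene *tre-5* 122 and 289.7, and the claudin-like gene *clc-19* 135 and 294. Both signals of these 3 genes were above 100. Of 74 probe sets for cell cycle and DNA damage 1 was lower, against 0.753% of all members. It belongs to *cki-1*, an inhibitor of cyclin-dependent kinases, and had 279 and 137. A second probe set of *cki-1* had a log2 ratio of 0.29.

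On the lower side the largest ratios belonged to genes with a sequence name. *F26A1.8* had 3736 with water and 233 with copper, 16-fold lower (3833 and 277 in wild-type animals), and a second probe set, listed for *F26A1.8* and *F26A1.7*, 1159 and 90.1. *C23G10.11* had 1361 and 47.1, at least 13.6-fold lower, and *F45D3.3* 1571 and 208. All of these were bright in water and at most 233 after 1 h of copper. Also lower were *dpf-6*, for a peptidase of the dipeptidyl peptidase family (763 and 137), *F25E5.8* (1059.8 and 236) and *C11G10.1* (425 and 87.8).

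Genes for membrane transport were the group with the most lower probe sets. Of 89 probe sets for solute carriers and pumps 9 were past 2-fold lower and 5 higher, and of 70 for ion channels 7 were lower and 2 higher. Over all members 0.753% were lower and 1.51% higher. These counts are of probe sets, and some genes have several. Some members were measured only through the array where they were high. Among these were *glc-2* (133 and 44.6) through water and *catp-2* (21.2 and 108) and *glr-4* (39.3 and 199) through copper. The counts therefore support nothing about the families. The medians of the 2 lists were 0.04 and -0.10, so the other members stayed near their water level. All 3 probe sets of the organic anion transporter gene *oat-1* were lower (430.0 and 152, 347 and 105, 321 and 154). *mfsc-1*, of the major facilitator superfamily, had 2359.7 and 801, the sugar transporter gene *swt-3* 874 and 309.9, and the ammonium transporter gene *amt-4* 646 and 241. The peptide transporter gene *pept-3* was lower on both probe sets, from 165 and from 119.2 to below 100. Of the channels, 3 of 5 probe sets of the chloride channel gene *clh-1* were lower, the brightest with 951 and 468, and the other 2 had log2 ratios of -0.52 and -0.65. The potassium channel gene *twk-1* had 569.8 and 273, the glutamate-gated chloride channel gene *glc-1* 782 and 389, and the degenerin gene *acd-2* 466 and 217. Transport genes on the higher side were the sulfate permease family gene *sulp-2* (259.8 and 841) and the phosphate transporter gene *pitr-5* (300.2 and 636). *mfsc-1* and *clh-1* are next to each other in the RefSeq gene order of the WBcel235 assembly, the only adjacent pair of measured genes that was lower together.

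**Figure D4:**
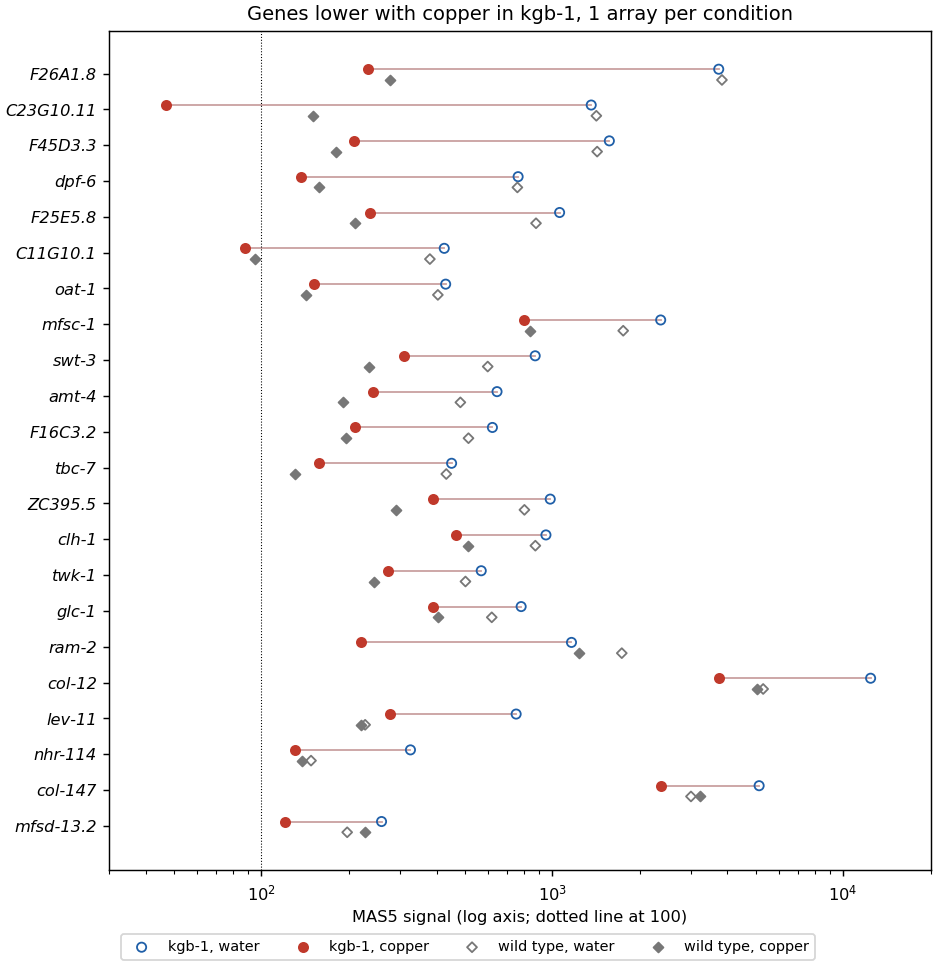
MAS5 signal (log axis) of 22 genes that were lower with copper in *kgb-1* mutants, 1 array per condition, with symbols as in the plot of higher genes and the brightest of each gene's lowered probe sets shown. For the first 16 genes both genotypes have higher signals with water than with copper, and for the last 6, from *ram-2* to *mfsd-13.2*, the wild-type diamonds lie within 1.5-fold of each other.

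Of 105 collagen probe sets 3 were lower and none higher, against 0.753% and 1.51% of all members. *col-12*, a cuticle collagen gene, had 12438 and 3742, and *col-147* 5145 and 2367 on one probe set and 9661 and 6816 on another. *col-153* was dim in both. Most genes of cell maintenance and reproduction stayed within 2-fold: none of 110 probe sets of the cytosolic ribosome (median 0.11), of 48 of the proteasome and ubiquitin (0.00), of 71 of the respiratory chain (0.07), of 15 for vitellogenins and yolk uptake (0.16) or of 85 of germline and oocyte (-0.06) passed. Of 76 probe sets of the sperm list 1 was higher (1.32%, against 1.51% of all members), *nspe-7* with 29.6 and 127. Outside that list *ssq-3* was lower, with 111 and 47.5. Among the markers of tissues and stages, 34 of 35 probe sets were measured, and 1 was past 2-fold, *mlt-10* of molting larvae (58.3 and 124, at least 1.24-fold). A second probe set of *mlt-10*, below 100 on both arrays, had 42.8 and 14.2. The summed signal of the 4 yolk probe sets was 93386 with water and 105814 with copper, that of the muscle markers 14221 and 13761, and that of the intestinal markers 2164 and 1969.9. Defining markers of adult, germline, muscle and intestine were thus present on both arrays at nearly the same level.

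The wild-type pair shares no array with the mutant pair, so that it can show which ratios recur. Of the 165 probe sets higher in mutants 97 (58.8%) were also more than 2-fold higher in wild-type animals, against 1.66% of all members, and 152 (92.1%) had the same sign, against 51% of all members. Of the 82 lower ones 26 (31.7%) were also past 2-fold lower, against 0.918% of all members, and 68 (82.9%) had the same sign. Read the other way, wild-type animals had 230 probe sets higher (2.11% of 10921 measured) and 118 lower (1.08%), together 348 (3.19%), of which the same 97 (42.2%) and 26 (22%) were past 2-fold in mutants. The wild-type probe sets higher with copper had a median log2 ratio of 0.90 in mutants and 1.27 in the animals they were picked in, and the lower ones -0.45 and -1.27. A list has its larger median in the pair that chose it, so these medians do not rank the genotypes. Over all members the ratios of the 2 pairs had a Pearson correlation of 0.54 and a Spearman correlation of 0.28, across probe sets that share their arrays.

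The recurrence can be given by brightness and size. Where the brighter mutant signal was 100 to 200, 11 of 48 higher and 4 of 39 lower ones were also past 2-fold in wild-type animals, and above 2000 it was 8 of 11 and 2 of 4. All 23 probe sets past 4-fold higher with dim signals raised, and 7 of the 8 past 4-fold lower, were past 2-fold in the same direction in wild-type animals. The exception was *ram-2*.

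**Figure D5:**
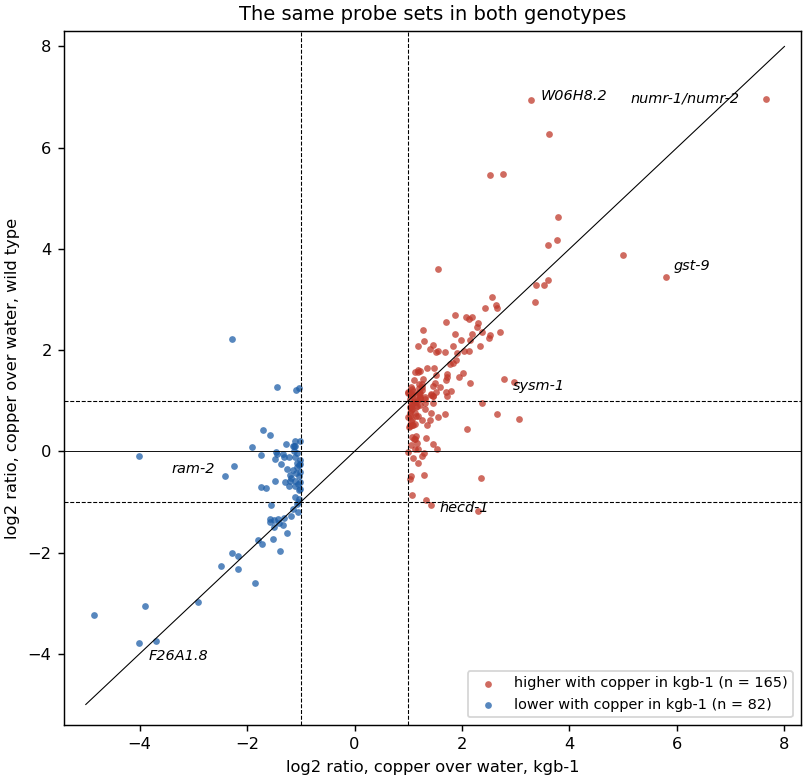
Log2 ratio of copper over water in *kgb-1* mutants (horizontal) and in wild-type animals (vertical) for the 165 probe sets higher (red) and the 82 lower (blue) in mutants. The thin diagonal marks equal ratios and dashed lines 2-fold. Ratios as deposited are shown, so low signals give long arms such as *W06H8.2* and *gst-9*, and *hecd-1* is the one probe set measured in both genotypes that is past 2-fold in opposite directions.

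A change that both genotypes share can be tested, since the 4 arrays leave 1 residual degree of freedom when copper and genotype are factors. In limma, fitted on 11266 probe sets with the variance following the mean signal and p-values adjusted by Benjamini-Hochberg, 133 were called higher with copper (1.18%) and 39 lower (0.346%) at an adjusted p under 0.05. With each array scaled to the same median, which lowers the wild-type ratios by 0.13 and the mutant ratios by 0.03, the counts were 195 and 177, so the share of lower calls depends on the scaling. With signals below 100 raised to 100 they were 97 (0.861%) and 28 (0.249%). Of the probe sets past 2-fold in mutants, 93 of 165 and 25 of 82 were called in the same direction. These probe sets were chosen by the mutant ratio, which is part of the shared effect, so the calls among them are not independent support. The probe set of the *numr* genes was called on the deposited signals (adjusted p = 0.000114 from limma) and with dim ones set to 100 (limma adjusted p = 0.000238), and its size has only the bound given above. The shared log2 change of *ora-1* was 3.33 ± 0.12 (SE, adjusted p = 0.000246 from limma) and that of *F26A1.8* -3.90 ± 0.12 (adjusted p = 0.000182 from limma).

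By family, the test called 9 of the 15 *nlp* and *cnc* probe sets higher, of which 8 were past 2-fold in mutants. Over all probe sets tested 1.18% were called higher and 0.346% lower, and 0.861% and 0.249% with signals raised. These shares are the background for each family count here. The test also called 4 of the 8 *oac* probe sets higher (3 with signals raised). The *oac* probe sets past 2-fold entered these 8 only through the mutant copper array, so that share supports nothing about the family. Of the 17 metal response probe sets 5 were called higher, those of the *numr* genes, *cdr-4* and *ttm-1*, and 2 with signals raised. Of the 37 lipase and esterase probe sets 6 were called higher and 1 lower, and 5 and 0 with signals raised. *nlp-29* had a shared change of 1.92 ± 0.11 and *zip-10* one of 2.37 ± 0.13 (limma adjusted p = 0.00105 and 0.00094). Of the transport genes lower in mutants, *swt-3* (-1.42 ± 0.13), *amt-4* (-1.38 ± 0.13), *mfsc-1* (-1.31 ± 0.14) and *twk-1* (-1.05 ± 0.13) were called, with limma adjusted p of 0.00589, 0.00728, 0.0117 and 0.0165. Among those not called were *glc-1* and *acd-2* (adjusted p = 0.062 and 0.0908 from limma). Both probe sets of *pept-3* (limma adjusted p = 0.353 and 0.475) and one of *oat-1* (limma adjusted p = 0.05002) were not called either. Among heat shock genes both probe sets of *F44E5.4* and *F44E5.5* and that of *hsp-16.48* and *hsp-16.49* were called, and *hsp-16.41* (adjusted p = 0.213 from limma) was not. *sysm-1* had a shared change of 2.10 ± 0.30 and passed on the deposited signals (adjusted p = 0.0295 from limma). All 4 of its signals were above 100, so the change is the same with dim signals of other probe sets raised, where the variance was estimated anew and the call was lost (adjusted p = 0.0661 from limma).

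Other mutant ratios had no counterpart past 1.5-fold in wild-type animals, although some had a smaller ratio of the same sign there. Of 36 lower probe sets with both mutant signals above 100, 12 had wild-type signals within 1.5-fold of each other, and of 89 higher ones it was 6. On the higher side *spp-12*, for a saposin-like protein, had 144 and 293 in mutants and 4.46 and 6.36 in wild-type animals, so only the mutants gave a signal that could be read. On the lower side *ram-2*, a gene needed for the shape of the male tail rays, had 1164 and 220.4 in mutants and 1734 and 1234 in wild-type animals. *col-12* had 5312 and 5041 in wild-type animals, both below its 12438 in mutants with water. *nhr-114*, with 325 and 130.5 in mutants, had 148 and 138 in wild-type animals, and *lev-11*, the tropomyosin gene, 751 and 277 against 227 and 219. In the last 3 the mutant array with water stood apart from the other 3 arrays. For 7 of the 12 lower and 3 of the 6 higher probe sets the copper-treated genotypes were closer to each other than the untreated ones. The choice of these probe sets already required the genotypes to differ with water, with copper or with both. These counts therefore support nothing further. The difference between the genotypes in these ratios has 1 array behind each of its 4 values and was not tested.

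A second probe set of the same gene often did not repeat such a ratio. The other measured probe set of *ram-2* had 386 and 430.2 in mutants, and the other 3 of *lev-11* had log2 ratios of -0.17 to 0.09. Of the genes past 2-fold higher 20 had more than 1 measured probe set, and in 6 of them every one was past 2-fold and in 13 every one had a ratio above 0. On the lower side it was 2 and 10 of 20. Genes with all probe sets past 2-fold were *cnc-7*, *oac-31*, *F59B10.4*, *T17H7.7*, *C17H12.8* and *W01F3.2* on the higher side, and *oat-1* and *pept-3* on the lower.

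The genes higher with copper were spread unevenly over the chromosomes. Of the measured genes with 1 symbol, 46 of 1435 on chromosome V (3.21%) and 34 of 1370 on chromosome IV (2.48%) had a probe set past 2-fold higher, against 8 of 1437 on chromosome I (0.557%). Chromosome V holds the *nlp-29* cluster and *cnc-2*, *cnc-4* and *cnc-7*, together with *oac-31*, *oac-6*, *oac-20*, *comt-3* and *comt-4*. Of 4506 pairs of measured genes next to each other in the RefSeq order, 8 were both higher, among them *nlp-31* with *nlp-30*, *nlp-30* with *nlp-29*, *F57H12.6* with *ora-1*, *C45B2.3* with *C45B2.2* and *srr-6* with *srr-4*. The *nlp* pairs rest on probe sets with a suffix for shared sequences, which may share signal. *C45B2.3* had 3.71 with water and 118 with copper, at least 1.18-fold higher. Whether 8 is more than scattered genes would give was not tested. The catalase control, whose ratio of 3' to 5' signal reflects RNA length, gave 3.63 with water and 2.90 with copper in mutants, the *Gapdh* control 0.942 and 1.08, and the actin control 1.70 and 1.74. In wild-type animals catalase gave 4.61 and 4.62. Their part in the ratios described here was not tested.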

How the data were processed

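RNA of each condition was hybridized on 1 array at a service company. The deposited values are linear intensities (the MAS5 signal), and the authors' processing left each array scaled to a common trimmed mean. The MAS5 version and a genome build are not given in the sources used here. Probe sets were named from the platform's gene table, matched by Entrez identifier to RefSeq (WBcel235), and *comt-3* and *comt-4* by the study's gene list. Signals were used as deposited. A member needs a signal of at least 100 on 1 of the 2 mutant arrays. Past 2-fold means a ratio above 2 or below 0.5, and a dimmer signal below 100 makes the fold a lower bound against 100. The shared effect was fitted to log2 signals by limma 3.58.1 (R 4.3.3; copper and genotype, trend, prior degrees of freedom 5.19) on probe sets with at least 100 on any array and tested on simulated data. It holds only changes that both genotypes share, and its error is their disagreement, which may be technical or biological. Python 3.11.15, numpy 2.4.6, pandas 2.3.3 and matplotlib 3.10.9 were used for the rest. The 4 arrays, 1 a condition, limit the precision.

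Named genes are the 15 largest differences in each direction with signals below 100 raised to 100, up to 4 members of each of 57 gene lists with the largest ratios, list members past 2-fold where these are 5 or fewer, and all measured members of 6 lists (metal response, copper handling, KGB-1 cascade, study selection, heat shock, hypoxia). Any other gene was picked with its values in view. The members, lists and tests were chosen with earlier results of these data known. Alternatives were other signal minimums and ratios, an offset, scaling of arrays, probe sets without shared sequences, a fit without genotype and each array left out. No sequences were used here.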

Additional observations from a re-analysis of the deposited data

Results flagged for a closer look

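*hecd-1*, for a HECT-domain ubiquitin ligase, was the 1 probe set measured in both pairs that was past 2-fold in opposite directions. Its log2 ratio of copper over water was 1.41 in *kgb-1* mutants (119.03 and 317) and -1.06 in wild-type animals (214 and 102). The difference between the genotypes was not tested, since each value is 1 array.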

How the results depend on the processing

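The counts of 165 higher and 82 lower in mutants depend on the signal minimum: 364 and 256 at 50, 43 lower at 200, and 2205 and 2086 with none, where most signals are dim. The lower count was 41 with an offset of 32, 43 with signals below 100 raised to 100 and 46 without shared-sequence probe sets. Counts were 454 and 340 at a ratio of 1.5 and 61 and 21 at 3. The share of mutant changes that recurred in wild-type animals was 92.1% and 82.9% by sign alone, and 73.5% and 51.2% past 2-fold with signals raised, an alternative chosen after seeing the data. The shared fit called 65 higher and 25 lower without genotype as a factor, and 177 lower after median scaling. With 1 array left out in turn and copper as the only factor it called 56 to 149 higher and 8 to 207 lower: 65 and 15 without untreated wild-type animals, 56 and 8 without untreated mutants, and 149 and 207 without copper-treated mutants. The cause was not tested. Without shared-sequence probe sets list medians were -0.048 for inducible heat shock (11 probe sets), 0.15 for fungus-induced proteins (1), 0.53 for O-acyltransferases (4) and 0.21 for pharynx and glands (9), and with a signal minimum of 200 it was 0.44 for chemosensory receptors (5). The other 222 of 227 recomputed list medians moved by less than the technical spread, as did 897 of 936 recomputed ratios of named probe sets. No named ratio past 2-fold changed sign. Much of this was fixed in advance. Median scaling shifts every mutant ratio by the same 0.03, which is less than that spread. Raising dim signals leaves ratios of brighter signals as they were and cannot reverse a sign. Only quantile normalization could have reversed a named ratio past 2-fold. No paired analysis was possible because each condition has 1 array and the groups share only replicate number 1, so a replicate number cannot be a block. The factor genotype already sets copper against water within each genotype.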
